A study of Mus musculus with 8 samples.

Results

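The 8 genes described here encode the 5 mouse dopamine receptors (Drd1 to Drd5), tyrosine hydroxylase (Th) and the monoamine oxidases A and B (Maoa, Maob). They were taken by gene name from a table of read counts for 54532 genes, and all 8 were found. The libraries were made from the medial prefrontal cortex (mPFC) of adult male C57BL/6 mice collected 1 h after a test of conditioned place preference for methamphetamine (METH), in which an animal returns to a compartment it has learned to associate with the drug. The retrieval group had 4 libraries and the non-retrieval group had 4 libraries, and tissue of 2 to 3 mice was pooled in each. Strain, sex, tissue and time are the same for both groups in the labels, which leave the handling of the non-retrieval mice unstated. Memory retrieval and exposure to the apparatus therefore cannot be told apart. The spread within a group is a spread between pools. In bulk tissue fewer cells of a type and less RNA per cell cannot be told apart.

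Total counts ran from 26275500 to 29470438 in retrieval libraries and from 25013503 to 29547978 in non-retrieval libraries. All 20 markers of cortical excitatory neurons were found and tested, with a summed level of 6192 to 7152 CPM (read counts put on an equal library size, so that depths can be compared) in retrieval and 6462 to 6999 CPM in non-retrieval libraries. Retrieval replicate 2 stood apart in markers of striatal projection neurons, the neurons of the caudate-putamen and nucleus accumbens, and results are therefore given with and without it. Of 26 such markers, which leave out the dopamine genes, 25 were found and none was at 0 in all libraries. Of 20 tested, edgeR called 1 (Scn4b, lower in retrieval), and 6 had an unadjusted p under 0.05, against 4.57% and 18.5% of all tested genes. Summed, the striatal markers reached 1369 CPM in retrieval replicate 2, while retrieval replicates 1, 3 and 4 had 970 to 1135 CPM and non-retrieval libraries 993 to 1136 CPM. The 12 markers of oligodendrocytes and myelin summed to 4176 to 6051 CPM in retrieval, highest in retrieval replicate 2, and to 3444 to 4062 CPM in non-retrieval libraries. Of these 12, 7 rose (3 without retrieval replicate 2), against 3.67% of all tested genes (2.63% without retrieval replicate 2). The part of these markers in the results below was not tested. Summed markers of interneurons were at 1594 to 1778 CPM in retrieval and 1656 to 1859 CPM in non-retrieval libraries. Those of microglia were at 300.3 to 353 CPM in retrieval and 328 to 343 CPM in non-retrieval libraries, and those of endothelium and pericytes at 327 to 383 CPM in retrieval and 347 to 378 CPM in non-retrieval libraries.

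Dopamine acts in the prefrontal cortex through G protein-coupled receptors of 2 classes. The D1 class (Drd1, Drd5) couples to stimulatory G proteins and raises cyclic AMP, and the D2 class (Drd2, Drd3, Drd4) couples to inhibitory G proteins and lowers it. Th catalyses the rate-limiting step of dopamine synthesis, and the fibres that release dopamine in the cortex come from neurons of the midbrain, whose messenger RNA lies largely in their cell bodies. Maoa and Maob are enzymes of the outer mitochondrial membrane that oxidise monoamines. Psychostimulants such as METH raise extracellular dopamine.

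The stretches upstream of the RefSeq transcription starts of Drd1, Drd2 and Th (build GRCm38.p6) are shown because Drd1 and Drd2 had the smallest p of the 8 genes and because Th holds 3 of the 5 patterns marked below. Each is written 5′ to 3′ in the direction of transcription, without bases inside an annotated exon. For that reason the 47 bases next to the Drd1 start and the 19 bases next to the Th start are left off. Positions given below count from the start and not from the end of the printed letters. Capitals mark matches, on either strand, to 5 patterns. These are the cyclic AMP response element (CRE) TGACGTCA, the AP-1 site TGANTCA, the EGR site GCGNGGGCG, the NR4A site AAAGGTCA and the GC box GGGGCGGGG. The Drd1 stretch lies at chr13:54055706-54055908 on the minus strand, the Drd2 stretch at chr9:49340153-49340402 on the plus strand and the Th stretch at chr7:142900015-142900245 on the minus strand, inside the Ensembl gene model, which starts farther upstream.
Drd1: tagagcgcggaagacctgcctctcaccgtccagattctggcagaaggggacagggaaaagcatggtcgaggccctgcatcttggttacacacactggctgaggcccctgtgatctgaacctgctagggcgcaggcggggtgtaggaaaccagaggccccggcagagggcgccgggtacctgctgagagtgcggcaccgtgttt
Drd2: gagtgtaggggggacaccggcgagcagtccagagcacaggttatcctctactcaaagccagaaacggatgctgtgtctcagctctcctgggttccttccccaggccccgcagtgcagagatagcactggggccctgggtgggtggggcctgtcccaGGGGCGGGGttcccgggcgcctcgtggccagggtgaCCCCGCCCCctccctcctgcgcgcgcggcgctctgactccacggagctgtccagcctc
Th: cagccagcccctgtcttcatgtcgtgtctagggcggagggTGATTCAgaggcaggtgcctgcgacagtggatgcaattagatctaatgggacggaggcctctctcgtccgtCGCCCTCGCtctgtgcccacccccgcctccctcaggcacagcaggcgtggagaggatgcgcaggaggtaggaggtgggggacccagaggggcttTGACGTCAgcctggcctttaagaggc
In the 250 bases before the start, Th matched the CRE at -45 to -38, the EGR pattern at -139 to -131 on the opposite strand and the AP-1 pattern at -210 to -204. Drd2 matched the GC box at -94 to -86 and, on the opposite strand, at -58 to -50. Drd1 matched none of the 5 patterns at the start shown, and its other listed start matched the GC box once. Of 32851 listed starts of all genes, 1.55% held the CRE, 4.7% the EGR pattern, 6.75% the AP-1 pattern, 1.34% the NR4A pattern and 10.4% the GC box in the same window. Sequences were listed for 7 of the 8 genes, not for Maob. Among the other 4, Drd4 held the GC box in 2 overlapping matches, Drd5 held it once, and Drd3 and Maoa matched none of the 5. A match is a description of letters and not of binding.

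Levels were compared between genes as CPM per kb of gene model. The monoamine oxidases were the most abundant, with a median over 8 libraries of 8.19 CPM per kb for Maob and 7.0 CPM per kb for Maoa. Per kb, Maob was above Maoa in all 8 libraries although their ranges overlapped (7.10 to 8.60 against 6.48 to 7.34). Without the division by length this order was reversed, with Maoa above Maob in all 8 libraries. The mean over all libraries was 28.98 CPM for Maoa and 22.37 CPM for Maob, with gene models of 4167 and 2789 bases. Whether these lengths are those of the expressed transcripts was not tested. Drd1 followed at a median of 3.61 CPM per kb (range 3.12 to 5.14), with all values below the lowest Maoa value and above the highest Th value. Th stood at 1.43 CPM per kb (1.07 to 2.05). Drd5 (0.685, range 0.529 to 1.27) and Drd2 (0.680, range 0.476 to 2.93) could not be ordered, with Drd5 above Drd2 in 5 of 8 libraries. Drd4 was at 0.128 CPM per kb (0.0738 to 0.249), and Drd3 had a single read in all libraries together.

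**Figure D1:**
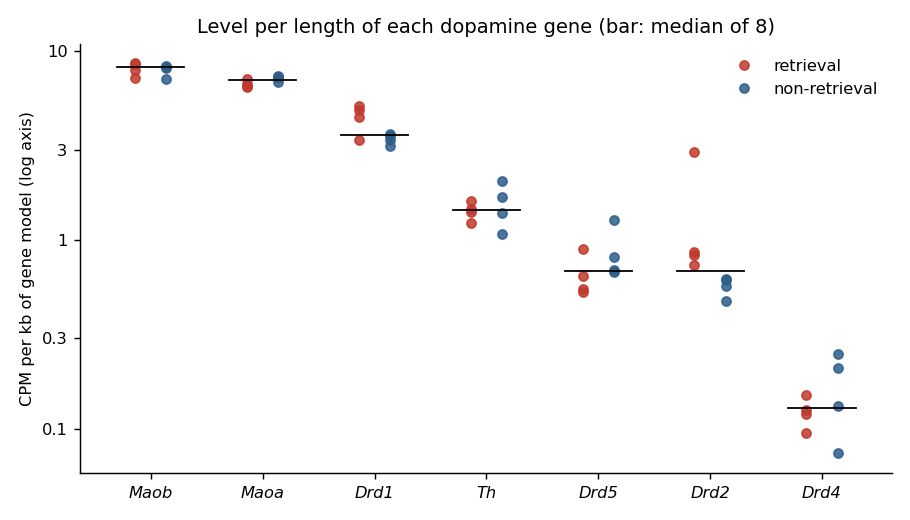
Level of 7 dopamine genes in each library, in CPM per kb of gene model on a log axis, with retrieval libraries (red) left of non-retrieval libraries (blue) and the median of the 8 libraries as a bar. The median runs from 8.19 for Maob to 0.128 for Drd4, and 1 retrieval library lies far above the others for Drd2.

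Retrieval was compared with non-retrieval to see whether transcripts of dopamine receptors and enzymes differed when the drug-associated memory was retrieved. Of the 8 genes, 7 passed the filter on low counts, all but Drd3, and 0 of the 7 were called at an adjusted p under 0.05. The test was edgeR's quasi-likelihood test with Benjamini-Hochberg adjustment over 16745 tested genes, of which 4.57% were called. Without retrieval replicate 2, 0 were called as well, against 3.26% of 16981 tested genes (2.63% higher and 0.636% lower). An unadjusted p under 0.05 was reached by 2 of the 7, Drd1 and Drd2, in both fits, against 18.5% of all tested genes with 8 libraries and 16.6% without retrieval replicate 2. DESeq2 called 1 of the 7, Drd1, against 6.11% of all genes it tested. Limma-voom with quality weights for the libraries (weighted limma-voom below) called 0 of the 7, against 9.67% of all tested genes. With 8 libraries 3 of the 7 log2 fold changes were positive and 4 negative, with a median of -0.10 against -0.01 over all tested genes.

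**Figure D2:**
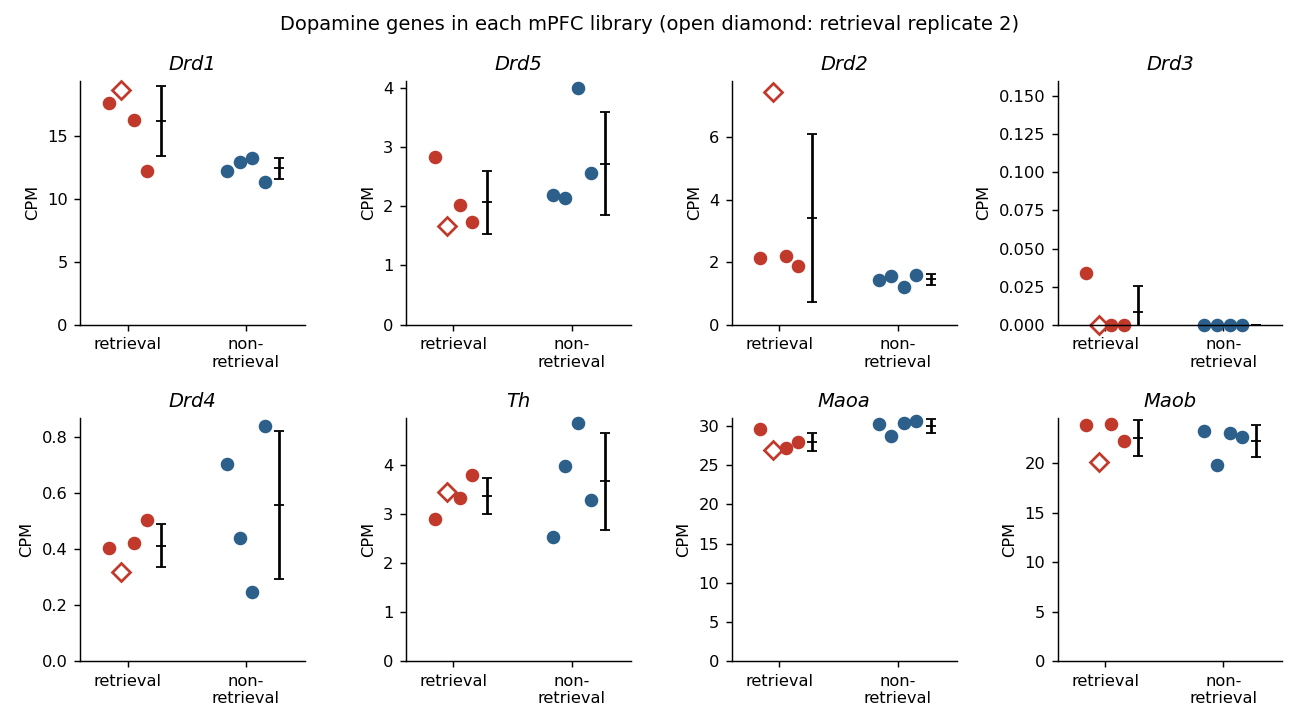
CPM of the 8 dopamine genes in each library, retrieval (red) left of non-retrieval (blue), with the mean and SD of 4 libraries beside the points and an open diamond for retrieval replicate 2. The groups are apart only for Drd2, where retrieval replicate 2 stands at 7.45 CPM and the other 7 libraries at or below 2.18 CPM.

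Among the D1 class, Drd1 (ENSMUSG00000021478, chromosome 13, 54051183 to 54055705, GRCm38), which encodes the D1 receptor, had 17.6, 18.6, 16.3 and 12.2 CPM in retrieval replicates 1 to 4, against 12.3, 12.9, 13.3 and 11.3 CPM in non-retrieval replicates 1 to 4. Retrieval replicates 1, 2 and 3 lay above all 4 non-retrieval libraries, and retrieval replicate 4 lay among them. The means were 16.2 ± 2.80 CPM in retrieval and 12.4 ± 0.85 CPM in non-retrieval (SD, n = 4 each), a log2 fold change of 0.38 (SE 0.11, 95% interval 0.14 to 0.62; edgeR adjusted p = 0.0716). Without retrieval replicate 2 the retrieval mean was 15.4 ± 2.79 CPM (SD, n = 3) and the log2 fold change 0.31 (SE 0.12; edgeR adjusted p = 0.181). The side of the threshold depended on the fit. DESeq2 called Drd1 higher (adjusted p = 0.0424), whereas weighted limma-voom gave a log2 fold change of 0.22 (adjusted p = 0.278). In edgeR, Drd1 was called higher without retrieval replicate 4 (0.49, adjusted p = 0.0110), without a filter on low counts (adjusted p = 0.00851) and with a length and GC offset (adjusted p = 0.0205). With that offset and without retrieval replicate 2 it was not called (adjusted p = 0.0791). Of all tested genes, 2.33% were called without retrieval replicate 4, 3.67% without the filter and 8.83% with the offset. With the replicate number as a block, edgeR called Drd1 with all libraries (adjusted p = 0.0103) and without retrieval replicate 2 (adjusted p = 0.0496). Those fits called 1791 of 16745 and 1709 of 16981 tested genes, and the labels do not say that the numbers pair libraries.

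Drd5 (ENSMUSG00000039358, chromosome 5, 38319367 to 38322518), the gene of the D5 receptor, which consists of 1 exon, had 2.83, 1.67, 2.03 and 1.74 CPM in retrieval replicates 1 to 4, against 2.18, 2.13, 3.99 and 2.56 CPM in non-retrieval replicates 1 to 4. The groups overlapped, and non-retrieval replicate 3 was the highest library. The log2 fold change was -0.39 (SE 0.23, 95% interval -0.88 to 0.10; edgeR adjusted p = 0.392), and -0.30 (SE 0.24; edgeR adjusted p = 0.577) without retrieval replicate 2. Drd5 overlaps the antisense gene Gm26560, which had 4 to 11 reads in retrieval and 8 to 11 reads in non-retrieval libraries. Drd5 itself had 47 to 84 reads in retrieval and 53 to 112 reads in non-retrieval libraries. Leaving out non-retrieval replicate 3 moved the Drd5 value to -0.15 (edgeR adjusted p = 0.807).

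Among the D2 class, Drd2 (ENSMUSG00000032259, chromosome 9, 49340627 to 49408177) encodes the D2 receptor, a receptor on indirect-pathway striatal neurons and an autoreceptor of dopamine neurons. It had 2.12, 7.45, 2.18 and 1.88 CPM in retrieval replicates 1 to 4, against 1.44, 1.57, 1.21 and 1.58 CPM in non-retrieval replicates 1 to 4. Each of the 4 retrieval libraries lay above the highest non-retrieval library, also with retrieval replicate 2 set aside. Groups that did not overlap were found for 1 of the 7 tested dopamine genes, against 11.1% of all tested genes with 8 libraries and 15.0% without retrieval replicate 2 (8.21% with retrieval above). The means were 3.41 ± 2.70 CPM in retrieval and 1.45 ± 0.17 CPM in non-retrieval (SD, n = 4 each), with a log2 fold change of 1.23 (SE 0.37, 95% interval 0.45 to 2.02; edgeR adjusted p = 0.0720).

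Without retrieval replicate 2, Drd2 averaged 2.06 ± 0.16 CPM in retrieval (SD, n = 3) and its log2 fold change was 0.51 (SE 0.21, 95% interval 0.06 to 0.96; edgeR adjusted p = 0.240). With the mean of the striatal markers as a covariate over all 8 libraries it was 0.55 (SE 0.21; edgeR adjusted p = 0.170). That mean was 4.70 log2 CPM in retrieval replicate 2 and 3.78 to 4.02 in the other libraries. The covariate thus mainly marks retrieval replicate 2, and this fit is close to leaving that library out. In edgeR, Drd2 was called higher without retrieval replicate 1 (log2 fold change 1.42, adjusted p = 0.0217) or 4 (1.43, adjusted p = 0.0435), without a filter on low counts (adjusted p = 2.00e-07) and with the length and GC offset (adjusted p = 0.0301). These fits keep retrieval replicate 2, and 8.02% of all tested genes were called without retrieval replicate 1. With that offset and without retrieval replicate 2 the adjusted p was 0.150. With the replicate number as a block, Drd2 was called with all libraries (log2 fold change 1.03, edgeR adjusted p = 0.0144). It was not called with the block and without retrieval replicate 2 (0.54, edgeR adjusted p = 0.178).

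**Figure D3:**
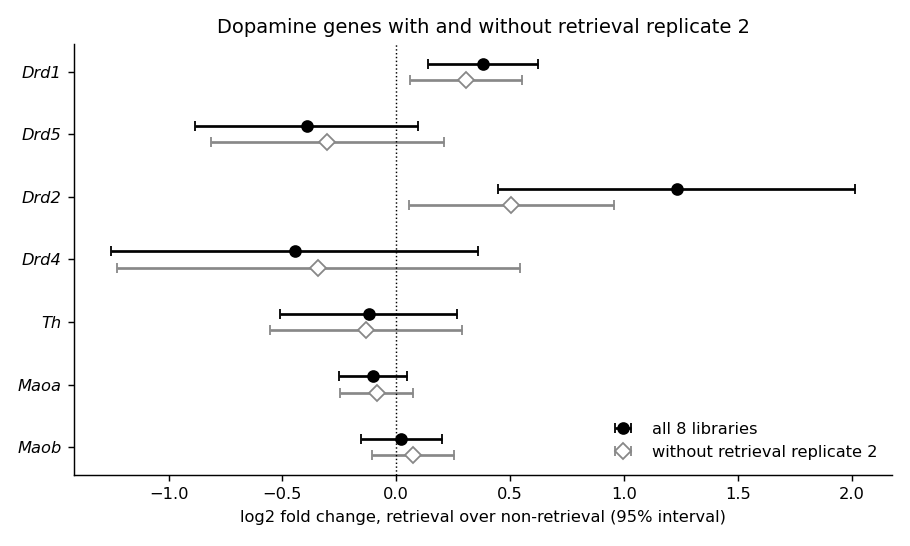
Log2 fold change of 7 dopamine genes, retrieval over non-retrieval, with 95% intervals from edgeR, for all 8 libraries (black) and without retrieval replicate 2 (open grey diamonds). Drd2 lies at 1.23 with all libraries and at 0.51 without retrieval replicate 2, and the values of the other 6 genes change by about 0.1 or less.

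Drd4 (ENSMUSG00000025496, chromosome 7, 141292006 to 141296464), the gene of the D4 receptor, had 12, 9, 11 and 14 reads in retrieval replicates 1 to 4 and 20, 11, 7 and 25 reads in non-retrieval replicates 1 to 4. The groups overlapped, and the lowest and the highest library were both non-retrieval. The means were 0.41 ± 0.08 CPM in retrieval and 0.56 ± 0.26 CPM in non-retrieval (SD, n = 4 each), with a log2 fold change of -0.45 (SE 0.38, 95% interval -1.25 to 0.36; edgeR adjusted p = 0.571), and -0.34 (SE 0.42; edgeR adjusted p = 0.736) without retrieval replicate 2. The size of the Drd4 value rested on single libraries, at -0.18 without non-retrieval replicate 4 (edgeR adjusted p = 0.888) and -0.69 without non-retrieval replicate 3 (edgeR adjusted p = 0.387). Drd3 (ENSMUSG00000022705, chromosome 16, 43754026 to 43822932), the gene of the D3 receptor, had 1 read in retrieval replicate 1 and 0 reads in the other 7 libraries. At this depth 3 reads correspond to 0.101 to 0.121 CPM per library, and Drd3 was not detectable above that limit, which covers counting error only. With 1 read in all, its groups could not be compared.

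In retrieval replicate 2, Drd2 stood at 4.71 times the median of the other 7 libraries and Drd1 at 1.44 times. Of the 21 striatal markers with at least 100 reads in all libraries together, 16 were higher in that library than in all other 7, and 6 were at least 2 times their median (median of the 21 markers 1.53 times, range 0.682 to 6.21). Markers of indirect-pathway neurons, which carry Drd2, were among those farthest up, with Gpr6 at 4.72 times and the adenosine receptor gene Adora2a at 4.52 times (12.4 CPM, against 1.94 to 3.43 CPM in the other libraries). Penk, the enkephalin precursor of the same neurons, was at 1.60 times. Tac1 and Pdyn, peptide genes of the direct-pathway neurons, which carry Drd1, were at 1.01 and 0.993 times. These 2 genes had 13.9 to 17.6 and 22.4 to 27.9 CPM in the other 7 libraries. Gpr6 had 0.579 to 1.31 CPM and Penk 23.4 to 36.3 CPM there. An equal added amount gives a smaller fold on a higher level, so these folds alone do not compare the 2 pathways. Serpina9, Syndig1l, Lrrc10b and Slc35d3, not assigned to a pathway here, were at 6.21, 3.57, 3.49 and 3.46 times. Whether the rise was confined to neurons of 1 pathway was not tested. The per-length ratio of Drd1 to Drd2 was 1.76 in retrieval replicate 2 and 4.56 to 5.83 in retrieval replicates 1, 3 and 4, against 5.03 to 7.68 in the non-retrieval group.

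**Figure D4:**
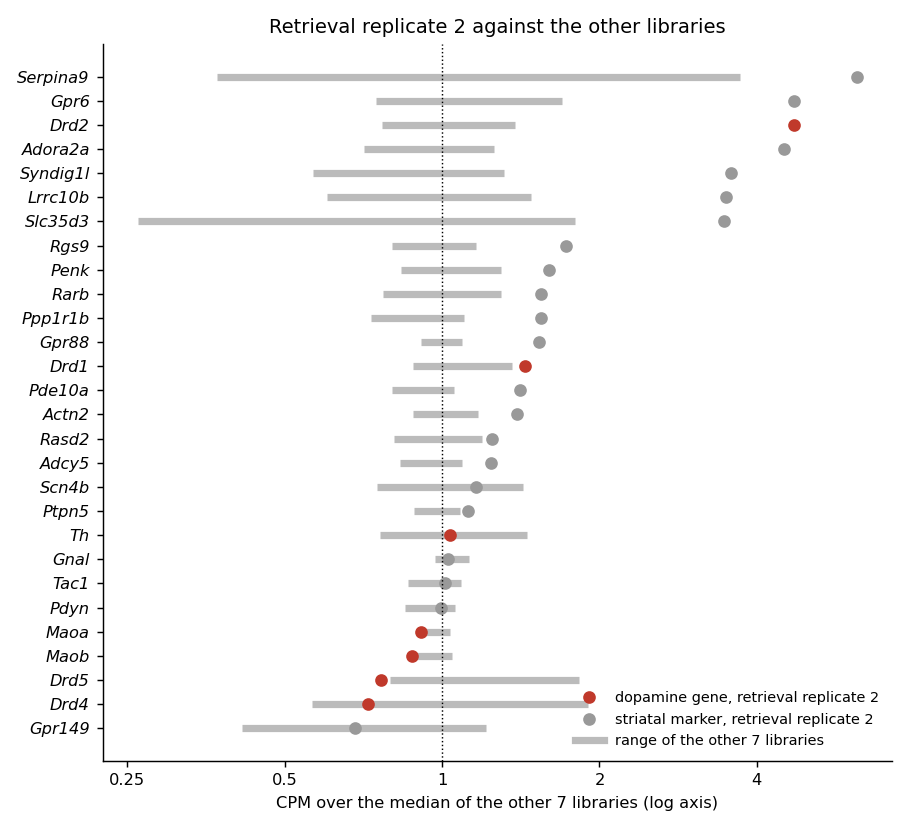
CPM in retrieval replicate 2 divided by the median of the other 7 libraries (points, log axis) for dopamine genes (red) and striatal markers (grey) with at least 100 reads in all, with the range of the other 7 libraries as a grey bar. Drd2 (4.71) lies beside Gpr6 (4.72) and Adora2a (4.52), Drd1 (1.44) among the less raised markers, and Th, Maoa, Maob, Drd4 and Drd5 between 0.722 and 1.03.

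Th (ENSMUSG00000000214, chromosome 7, 142892752 to 142931128), the gene whose upstream stretch above holds the CRE, had 2.89, 3.44, 3.33 and 3.8 CPM in retrieval replicates 1 to 4, against 2.54, 3.98, 4.85 and 3.30 CPM in non-retrieval replicates 1 to 4. The retrieval libraries all lay inside the range of the non-retrieval ones. The log2 fold change was -0.12 (SE 0.18, 95% interval -0.51 to 0.27; edgeR adjusted p = 0.776) and -0.13 (SE 0.20; edgeR adjusted p = 0.790) without retrieval replicate 2. Leaving out non-retrieval replicate 3 turned the sign, at 0.05 (edgeR adjusted p = 0.942). Of 16 markers of midbrain dopamine neurons, Th included, the transcription factor genes Foxa1, Foxa2 and En1 had 0 reads in all libraries, and the dopamine transporter gene Slc6a3 had 0 to 4 reads in retrieval and 1 to 4 reads in non-retrieval libraries. Their summed level was 62.0 to 69.9 CPM in retrieval and 40.5 to 47.9 CPM in non-retrieval libraries, and the activity-regulated gene Nr4a2 alone had 29.7 ± 3.29 CPM in retrieval and 9.51 ± 1.16 CPM in non-retrieval libraries (SD, n = 4 each). Among noradrenergic markers, Hand2 had 0 reads in all libraries, the noradrenaline transporter gene Slc6a2 had 2 in all, and Dbh, which turns dopamine into noradrenaline, had 8 to 11 reads in retrieval and 6 to 13 in non-retrieval libraries.

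Maoa (ENSMUSG00000025037, chromosome X, 16619698 to 16687818), which prefers serotonin and noradrenaline as substrates, had 29.6, 27.0, 27.2 and 28 CPM in retrieval replicates 1 to 4, against 30.3, 28.7, 30.4 and 30.6 CPM in non-retrieval replicates 1 to 4. Retrieval replicate 1 lay above non-retrieval replicate 2, and the other 3 retrieval libraries lay below all non-retrieval ones. The means were 28 ± 1.17 CPM in retrieval and 30.0 ± 0.86 CPM in non-retrieval (SD, n = 4 each), with a log2 fold change of -0.10 (SE 0.07, 95% interval -0.25 to 0.05; edgeR adjusted p = 0.468), and -0.09 (SE 0.08; edgeR adjusted p = 0.623) without retrieval replicate 2. Across the 20 other fits the value stayed between -0.13 and -0.08.

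Maob (ENSMUSG00000040147, chromosome X, 16709282 to 16817366) lies 21463 bases from Maoa on the opposite strand and is known in the brain from astrocytes and serotonin neurons. It had 23.8, 20.1, 24 and 22.3 CPM in retrieval replicates 1 to 4, against 23.3, 19.8, 23.0 and 22.7 CPM in non-retrieval replicates 1 to 4. The groups overlapped, and replicate 2 was the lowest library of each. The log2 fold change was 0.02 (SE 0.08, 95% interval -0.16 to 0.20; edgeR adjusted p = 0.919), and 0.07 (SE 0.09; edgeR adjusted p = 0.718) without retrieval replicate 2. The 14 astrocyte markers, none at 0, summed to 4464 to 5231 CPM in retrieval and 4120 to 4672 CPM in non-retrieval libraries.

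The rest of the dopamine pathway was described with 4 gene lists. Of 10 genes of dopamine synthesis and vesicular storage, 8 were tested. EdgeR called 0 of them, against 4.57% of all tested genes, and 2 had an unadjusted p under 0.05, against 18.5%. DESeq2 and weighted limma-voom each called 1, against 6.11% and 9.67% of all genes tested in those fits. The median log2 fold change was 0.01, against -0.01 over all tested genes. Gch1, which encodes GTP cyclohydrolase I, the first enzyme of the tetrahydrobiopterin cofactor that Th needs, had 2.36, 1.28, 1.38 and 1.67 CPM in retrieval replicates 1 to 4, against 1.16, 0.925, 0.820 and 0.538 CPM in non-retrieval replicates 1 to 4. The groups did not overlap, as for 11.1% of all tested genes with 8 libraries. The log2 fold change was 0.96 (SE 0.28; edgeR adjusted p = 0.0615), or 1.07 (SE 0.29; edgeR adjusted p = 0.0525) without retrieval replicate 2. Gch1 was the gene that DESeq2 (adjusted p = 0.0459) and weighted limma-voom (adjusted p = 0.0281) called, and its adjusted p ran from 0.0129 to 0.190 over 20 other fits. Ddc, the decarboxylase that makes dopamine from L-DOPA, had 5.18 to 5.68 CPM in retrieval and 3.53 to 4.75 CPM in non-retrieval libraries, without overlap, at a log2 fold change of 0.35 (SE 0.13; edgeR adjusted p = 0.140). Pcbd1, which recycles the cofactor, was at -0.28 (SE 0.18; edgeR adjusted p = 0.438).

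Of 14 genes of dopamine clearance and catabolism, Maoa and Maob included, 12 were tested. EdgeR, DESeq2 and weighted limma-voom each called 0, and 0 had an unadjusted p under 0.05 in edgeR (median log2 fold change -0.05). The 3 non-member genes with the smallest p were the plasma membrane monoamine transporter Slc29a4 (log2 fold change 0.21), Rnls (-0.34) and Aldh1a7 (-0.27), at edgeR adjusted p of 0.463, 0.463 and 0.489.

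All 24 genes of D1-class signalling were tested. EdgeR called 0, against 4.57% of all tested genes, and 5 had an unadjusted p under 0.05, against 18.5%. DESeq2 called 0 and weighted limma-voom 2, against 6.11% and 9.67% of all genes tested in those fits (median log2 fold change in edgeR 0.0032). The G protein subunit gene Gng7 was at 0.24 (SE 0.08; edgeR adjusted p = 0.124), the adenylate cyclase gene Adcy5 at 0.21 (SE 0.09; edgeR adjusted p = 0.190) and the protein kinase A subunit gene Prkar2a at 0.16 (SE 0.07; edgeR adjusted p = 0.228). Gng7 and Adcy5, which are both abundant in striatum, were highest in retrieval replicate 2, and without it stood at 0.17 and 0.14. Gng7 was called higher in 5 of 20 other fits, among them the length and GC offset with all libraries (0.22, edgeR adjusted p = 0.0189). With that offset and without retrieval replicate 2 the adjusted p of Gng7 was 0.0734. Adcy5 was called in 4 of 20 and stood at 0.10 with the offset, and Prkar2a was called in 1 of 20. Of 28 tested genes of D2-class signalling, 1 rose and 0 fell in edgeR, against 3.67% of all tested genes higher and 0.902% lower. DESeq2 called 1 of them and weighted limma-voom 2, against 6.11% and 9.67% of all genes tested in those fits (median log2 fold change in edgeR 0.01). The gene that rose was Gnai3, an inhibitory G protein alpha subunit. It had 37.0, 32.8, 34.3 and 35.2 CPM in retrieval replicates 1 to 4, against 29.3, 26.1, 29.3 and 24.5 CPM in non-retrieval replicates 1 to 4. All retrieval libraries were above all non-retrieval ones, at a log2 fold change of 0.35 (SE 0.08; edgeR adjusted p = 0.0178). The call held without retrieval replicate 2 (0.38, SE 0.08; edgeR adjusted p = 0.0166) but ended without retrieval replicate 4 (adjusted p = 0.0543) or non-retrieval replicate 4 (adjusted p = 0.0744). The potassium channel gene Kcnj3, a GIRK channel opened by inhibitory G proteins, was at -0.25 (SE 0.09; edgeR adjusted p = 0.126) and the receptor kinase gene Grk3 at 0.19 (SE 0.07; edgeR adjusted p = 0.164). Kcnj3 was called lower in 7 of 20 other fits, among them the length and GC offset with all libraries (adjusted p = 0.00904) and without retrieval replicate 2 (adjusted p = 0.0335). Grk3 was called in 2 of 20 and stood at 0.11 with the offset.

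**Figure D5:**
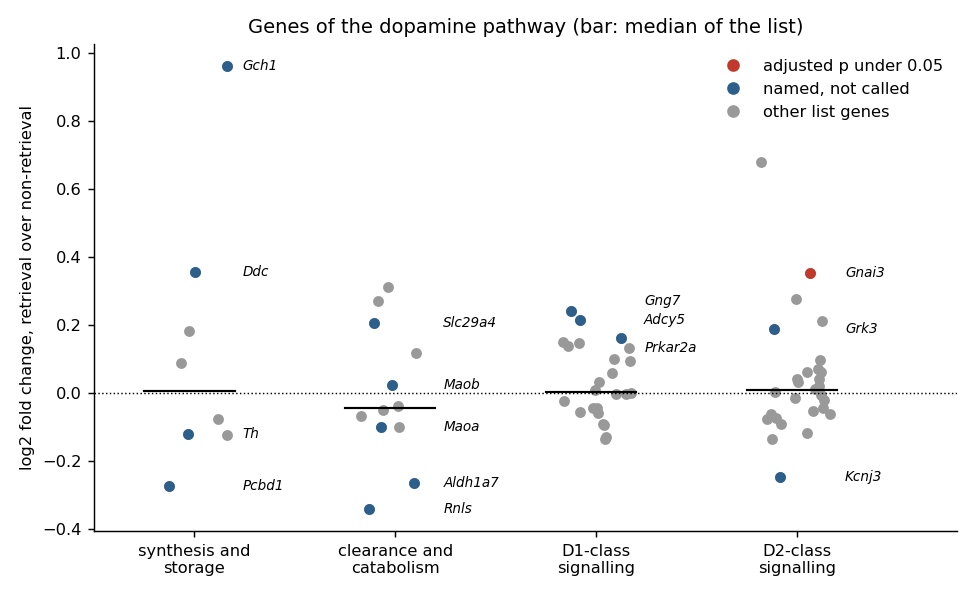
Log2 fold change, retrieval over non-retrieval, of tested genes in 4 dopamine pathway lists, with the list median as a bar, genes called at an adjusted p under 0.05 in red, other named genes in blue and the rest in grey. The list medians lie between -0.05 and 0.01, Gnai3 (0.35) is the one called gene, and Gch1 (0.96) has the largest value.

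The genes whose log2 CPM was most like that of a dopamine gene over the 8 libraries were picked from 13247 protein-coding genes with a mean of at least 1 CPM, by Pearson's r. This describes libraries that share their depth and composition. They were Fchsd2 for Drd1 (r = 0.976), Abcc1 for Drd2 (0.971), Tcp1 for Drd5 (0.973), Pfn2 for Maoa (0.989), Vip for Maob (0.977) and Casq2 for Th (0.976). Of the 5 closest genes with all libraries, 0 for Drd2 were again among the 5 closest over 7 libraries without retrieval replicate 2, against 1 for Drd1 (Klf9), 1 for Drd5 (Tcp1), 1 for Maob (Vip), 2 for Maoa (Pfn2 and Rassf3) and 3 for Th (Casq2, Pex6 and Cib1). For Abcc1 and Drd2, r was 0.719 without that library.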

How the data were processed

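The authors deposited 1 table of raw counts for 54532 genes, without normalization. HISAT2 2.0.5 and featureCounts 1.5.0-p3 are named, with build GRCm38, in the submitters' processing notes. Neither annotation release nor strand setting is given in the sources used here. Reads of overlapping genes on opposite strands could therefore not be told apart. Gene lengths came from the deposited table, and the limits of the 8 genes were the same in GENCODE M21. No pair of libraries within a group agreed within sampling noise (chi-square per degree of freedom 6.18 to 24.8).

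Groups and numbers of libraries came from their titles. Genes were filtered with filterByExpr, scaled with TMM factors and tested two-sided with edgeR 4.0.16 (R 4.3.3) and Benjamini-Hochberg adjustment over 16745 genes, called at an adjusted p under 0.05. The fit without retrieval replicate 2 was rebuilt from the filter on. CPM used the same factors, and log2 CPM a prior count of 2. The procedure was tested on simulated counts. Of 199 list symbols, 196 were found. The 8 genes and the lists were chosen with earlier results of these data known. The text names the 8 genes, called genes of the pathway lists and the 3 non-member genes of each pathway list with the smallest p. Called genes of the marker lists are not all named. Of the 5 genes most like each abundant member, it names the closest and those that stayed among the 5 without retrieval replicate 2. Alternatives were other scaling, filters and thresholds, DESeq2 1.42.0, limma-voom with library quality weights (limma 3.58.1), a striatal covariate, the replicate number as a block, each library left out, and, added after the data were seen, a loess offset for gene length and GC content. Some list genes are not reported here.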

Additional observations from a re-analysis of the deposited data

Results flagged for a closer look

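Of 16 groups of 4 libraries examined, 2 held a library whose gap to its nearest neighbour, divided by the range of the group, was above the 95% critical value of Dixon's test for 4 values (0.946 for Drd2 in retrieval and 0.841 for Maoa in non-retrieval). Drd3, with 1 read in retrieval replicate 1 and 0 reads in the other libraries, is not counted among these 2. Chance gives about 1 in 20 groups. Drd2 stood at 7.45 CPM in retrieval replicate 2 and at 1.88 to 2.18 CPM in the other 3 retrieval libraries, and the summed striatal markers were 1369 CPM in that library against 970 to 1135 CPM in those 3. Maoa stood at 28.7 CPM in non-retrieval replicate 2 and at 30.3 to 30.6 CPM in the other 3 non-retrieval libraries.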

How the results depend on the processing

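The count of called genes was 766 (615 higher, 151 lower). It was 1173 at an adjusted p under 0.1, 1619 with limma-voom and library quality weights, which changes both the method and the weighting, 1479 with the length and GC offset (778 higher, 701 lower, so 52.6% higher against 80.3%) and 330 to 1360 with 1 library left out, lowest without non-retrieval replicate 4 and highest without retrieval replicate 1. Of the dopamine genes, 0 were called, against 2 at an adjusted p under 0.1, 2 without a filter on low counts, 1 with DESeq2, 2 with the length and GC offset and 0 to 2 with 1 library left out, and these were Drd1 and Drd2. Maob turned to -0.0039 with upper-quartile factors and ran from -0.028 to 0.073 with 1 library left out, and Th ran from -0.26 to 0.045. Drd4, Drd5, Maoa, Drd1 and Drd2 kept their direction in all fits run. The cause of these changes was not tested. With the replicate block 1791 of 16745 tested genes were called, and 2 dopamine genes. With the block and without retrieval replicate 2, 1709 of 16981 tested genes were called, and 1 dopamine gene (Drd1). In these 2 fits the edgeR adjusted p of Drd1 was 0.0103 and 0.0496. Of 24 tested genes of the D1-class list 2 and 4 were called, and of 28 of the D2-class list 3 and 4. The same number in both groups is not said to mark a shared litter or day. Deviations of same-numbered libraries correlated at 0.027 to 0.22, and all 8 libraries correlated best with their own number, a hint from the data and not from the design. Drd3 and Drd4 are limited by depth.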

Other observations

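Per-length ratios within a library, chosen after the values of the genes were seen and not tested, gave a further view of the receptors. The ratio of Drd1 to Drd5, the 2 members of the D1 class, was 5.41, 9.70, 6.97 and 6.12 in retrieval replicates 1 to 4, against 4.88, 5.26, 2.89 and 3.85 in non-retrieval replicates 1 to 4. The lowest retrieval library (5.41) lay above the highest non-retrieval one (5.26), although each receptor gene alone overlapped between the groups. Groups did not overlap for 11.1% of all tested single genes with 8 libraries, and no such share was computed for ratios. The highest ratio was that of retrieval replicate 2, and the lowest that of non-retrieval replicate 3, the library with the most Drd5. The ratio of Maoa to Maob was 0.831, 0.898, 0.760 and 0.841 in retrieval replicates 1 to 4, against 0.871, 0.971, 0.885 and 0.903 in non-retrieval replicates 1 to 4, and the groups overlapped.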
